A study of Mus musculus with 4 samples.

Results

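The Runx transcription factor genes Runx1, Runx2 and Runx3 were examined for regions called as dimethylated at lysine 36 of histone H3 (H3K36me2) in mouse mesenchymal stem cells (MSCs) grown from bone marrow. All regions called in or within 200 kb of these 3 genes were taken, which gave 9 of the 7699 peaks of the melatonin library and 13 of the 8361 peaks of the untreated library. For the melatonin library the cells had received melatonin at 1 µM over 24 h, and for the untreated library they were labelled untreated. Both cultures were grown in DMEM with 10% fetal bovine serum, and each had 1 ChIP library and 1 input library made without antibody. The labels name no strain and no sorting of the cells, the series' design speaks of old donors without giving the age behind a library, and their protocol field gives the melatonin treatment for every library, so that the groups rest on the sample characteristic. The ChIP libraries held 14180076.5 tags with melatonin and 13198427.5 tags without. With 1 library per condition there was no replicate check, no test between the conditions was possible, and the p-values quoted are the peak caller's own, for ChIP over input. Peak lists hold no RNA, so the identity of the cells could not be set against expression markers.

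Runx proteins bind DNA through the conserved Runt domain together with the partner subunit encoded by Cbfb, and they activate or repress genes depending on the cofactors present. Runx2 commits progenitors to the osteoblast lineage, Runx1 is required for blood stem cells and is also present in skeletal progenitors, and Runx3 acts in T cells, in sensory neurons and in maturing cartilage. Mouse Runx genes are known for a distal and a proximal promoter. H3K36me2 is written by enzymes such as NSD1 and NSD2 and usually forms broad domains over genes and between them.

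The start sites from which positions are measured here are shown first, because none of them carried a peak. The RefSeq promoter table (GRCm38.p6) listed 5 start sites, a distal and a proximal one for Runx1, 1 for Runx2, and a distal and a proximal one for Runx3. Each window spans 250 bases before the start to 50 after it. Capitals mark the Runx recognition letters ACCACA, searched on both strands as ACCACA and TGTGGT.
Runx1 distal start, chr16:92826025-92826324, minus strand: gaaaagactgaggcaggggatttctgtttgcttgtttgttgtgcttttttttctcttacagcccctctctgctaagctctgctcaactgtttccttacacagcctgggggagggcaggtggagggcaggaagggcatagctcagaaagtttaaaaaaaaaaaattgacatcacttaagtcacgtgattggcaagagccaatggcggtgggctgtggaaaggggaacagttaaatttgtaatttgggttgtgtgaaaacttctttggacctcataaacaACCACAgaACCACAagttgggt
Runx2 listed start, chr17:44814578-44814877, minus strand: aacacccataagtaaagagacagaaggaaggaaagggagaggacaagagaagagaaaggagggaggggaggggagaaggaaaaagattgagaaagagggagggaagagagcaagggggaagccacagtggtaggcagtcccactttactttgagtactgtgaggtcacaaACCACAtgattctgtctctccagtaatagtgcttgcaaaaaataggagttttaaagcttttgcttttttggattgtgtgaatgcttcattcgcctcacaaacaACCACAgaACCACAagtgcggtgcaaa
Runx3 distal start, chr4:135120395-135120694, plus strand: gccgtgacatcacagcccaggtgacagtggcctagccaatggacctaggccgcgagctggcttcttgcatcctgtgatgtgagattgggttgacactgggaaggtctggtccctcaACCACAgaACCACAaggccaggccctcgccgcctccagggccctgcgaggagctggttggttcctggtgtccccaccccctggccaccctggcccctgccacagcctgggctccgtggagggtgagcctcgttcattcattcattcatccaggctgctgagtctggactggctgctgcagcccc
Runx1 proximal start, chr16:92697280-92697579, minus strand: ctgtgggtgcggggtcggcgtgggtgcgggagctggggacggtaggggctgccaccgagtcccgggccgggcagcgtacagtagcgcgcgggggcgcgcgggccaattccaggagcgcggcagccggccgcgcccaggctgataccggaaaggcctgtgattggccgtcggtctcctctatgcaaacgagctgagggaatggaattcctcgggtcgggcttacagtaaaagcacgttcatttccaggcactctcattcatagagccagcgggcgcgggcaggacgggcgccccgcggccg
The Runx1 distal window held the letters at 2 places, 28 and 36 bases downstream of the start. The Runx2 window held them at 3 places, of which 2 lay 23 and 31 bases downstream and 1 lay upstream, at -80 bases from the start. The Runx3 distal window held them at 2 places, at -134 and -126 bases from the start. In each of these 3 windows a pair of matches lay 8 bases apart with the same letters between them, forming one run. That run occurred in 4 of 32851 promoter windows (0.0122%), the other one belonging to the noncoding gene Gm16225 beside Runx3. Gm16225 ends at 135120376, next to the Runx3 distal window, so its window may hold the Runx3 run counted again. Whether the 2 windows share that DNA was not checked. The proximal windows of Runx1 and Runx3 held no ACCACA on either strand, whereas 16.8% of all promoter windows did. The matches describe the letters only.

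The nearest called region lay 9.16 kb from the proximal Runx1 start with melatonin and 217 kb from it in the untreated list. For the distal Runx1 start these distances were 26.3 kb with melatonin and 87.9 kb in the untreated list. For the Runx2 start they were 168.6 kb with melatonin and 44.1 kb in the untreated list. All 22 regions were therefore remote from the listed starts, by at least 9.16 kb.

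Peaks were called around Runx2 and Runx1 and none around Runx3, in both libraries. Runx2 had 6 peaks with melatonin (2.2 to 13.1, exact 95% Poisson limits) and 9 untreated ones (4.12 to 17.1). Runx1 had 3 with melatonin (0.619 to 8.77) and 4 untreated ones (1.09 to 10.2). The intervals of the libraries overlapped for each gene, by counting error alone. Having a peak in such a window was common: of 21627 protein-coding genes on chromosomes 1 to 19 and X, 44.4% had one with melatonin and 39.8% had one in the untreated list. Both lists had one for 28.2% of genes, and neither had one for 44.0%. With only 3 genes, 2 of them having peaks in each list cannot be set apart from that background. Since reads carried no molecular identifiers and peaks cluster, all intervals given here cover counting error only.

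**Figure D1:**
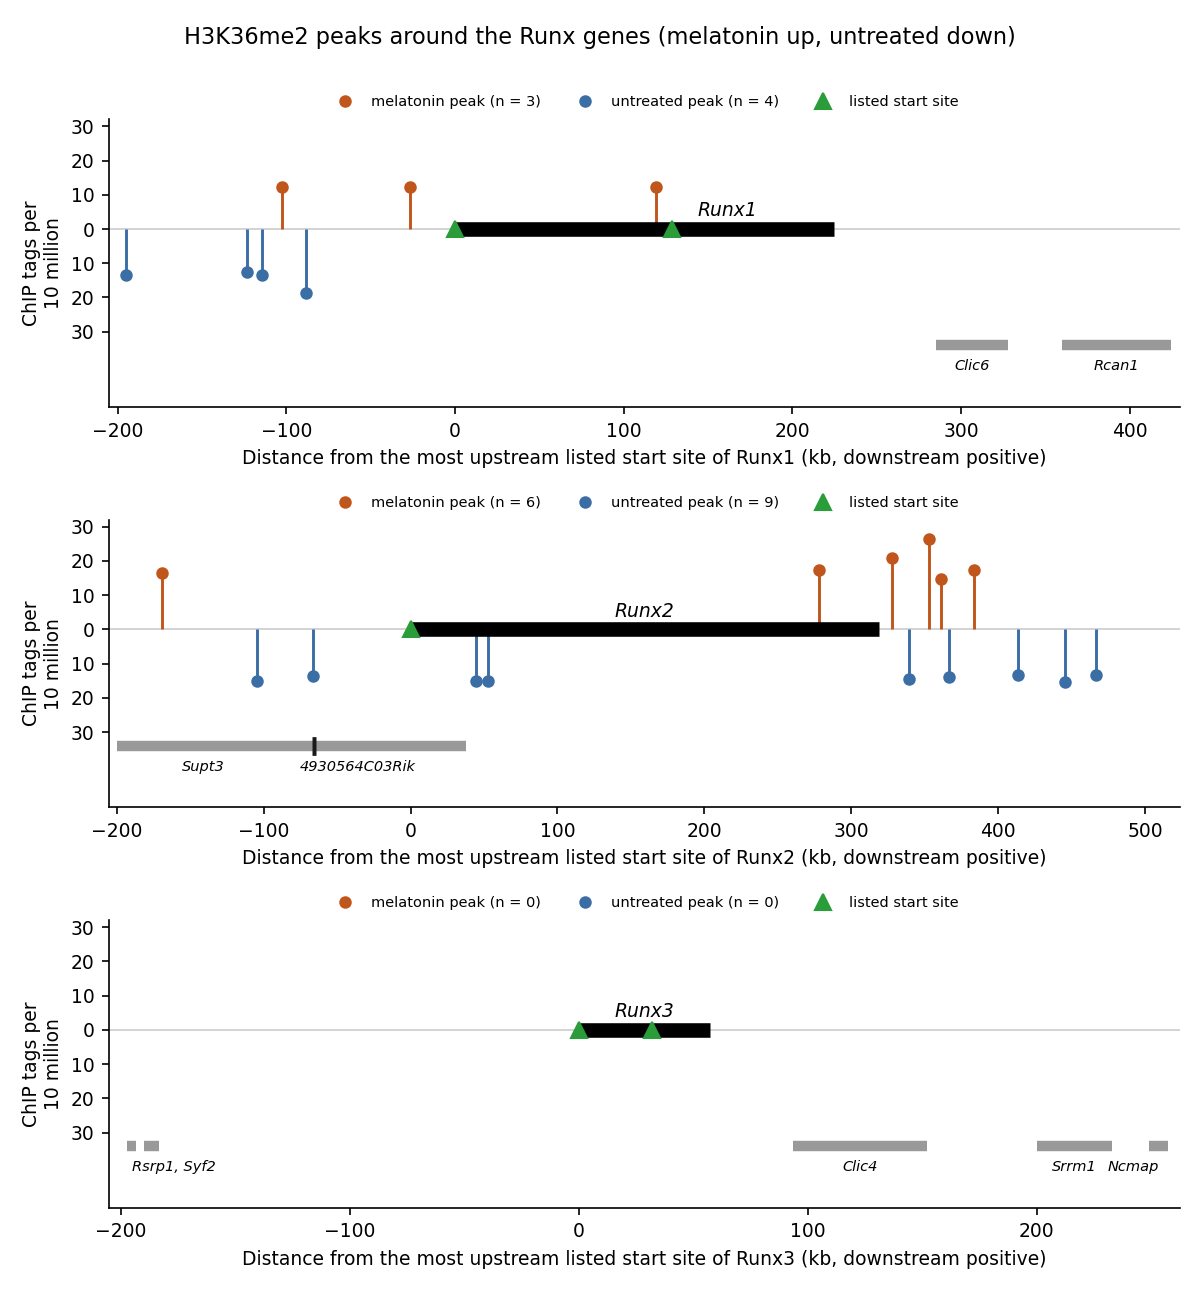
Called H3K36me2 regions within 200 kb of Runx1, Runx2 and Runx3, by distance of the region's midpoint from the most upstream listed start site (kb, downstream positive) and by ChIP tags per 10000000. Melatonin peaks point up and untreated peaks down, black bars on the middle line are the Runx genes, and triangles listed starts. Grey bars below are other protein-coding genes, of which the small 4930564C03Rik is drawn near black. The Runx2 peaks crowd beyond the 3′ end of the gene, the Runx1 peaks lie mostly upstream, and Runx3 has none.

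Around Runx2 (chromosome 17, 44495987 to 44814797, minus strand), 9 of the 15 peaks lay downstream of the gene's 3′ end, 4 with melatonin and 5 in the untreated list. They spanned 141 kb, from 8.2 to 147.8 kb beyond the gene, and no annotated gene overlapped any of them. The 4 melatonin regions of this stretch lay at 44430582 to 44431836, 44453184 to 44454184, 44460921 to 44462507 and 44486272 to 44487788. The 5 untreated regions lay at 44347206 to 44348206, 44368441 to 44369441, 44400819 to 44401819, 44447657 to 44448657 and 44474910 to 44475910. The regions of the lists were interleaved along the stretch without overlapping. The nearest approach was 4.53 kb, between the melatonin peak at 44453184 and the untreated peak at 44447657. The 2 untreated peaks farthest from Runx2 had Clic5, a chloride intracellular channel gene, as their nearest gene, at 67.0 and 88.3 kb, while the other 7 had Runx2.

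The melatonin regions downstream of Runx2 included the one with most ChIP tags of all 22. The region at 44460921 had 26.4 ChIP tags per 10000000 and 6 input tags (fold over input 5.43, p = 9.15e-14 in the authors' list), and its tag count stood at the 99.0th percentile of the melatonin list. The region at 44486272, which was the closest to the gene end, had 20.8 tags per 10000000 and 5 input tags (fold 5.13). The region at 44430582 had 17.3 tags per 10000000 on 1 input tag, which gave a fold of 21.3 with an exact 95% interval of 3.48 to 876. The interval is that wide because the fold rests on a single input tag. The region at 44453184 had 14.8 tags per 10000000 and 4.5 input tags (fold 4.06, close to the required 4). The 5 untreated regions of the stretch ran from 13.3 to 15.5 tags per 10000000, with folds from 4.31 to 5.84, and so lay lower than 3 of the 4 melatonin regions in tags per region.

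Inside the Runx2 body, the melatonin list had 1 peak and the untreated list had 2, at opposite ends of the gene. The melatonin peak (44536102 to 44537505) lay 277.8 kb downstream of the listed start, at 87.1% of the gene's length, with 17.3 tags per 10000000 and 3 input tags (fold 7.1, interval 2.16 to 36.8). The untreated peaks lay 52.7 kb (44761394 to 44762394) and 44.6 kb (44769574 to 44770574) from the start, at 16.5% and 14.0% of the length. Each had 15.2 tags per 10000000, but on 4.7 input tags for the first (fold 4.27, interval 1.66 to 13) and 1.2 for the second (fold 17.09, interval 3.53 to 252). Their folds thus differed through the input and not through the ChIP tags, and the intervals overlapped. The melatonin peak was 60.2 kb from the nearest untreated peak, which lay downstream of the gene. The untreated pair was 220.9 and 212.7 kb from the nearest melatonin peak.

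A body peak was called in 5.54% of protein-coding genes with melatonin and 5.26% in the untreated list. Runx1 and Runx2 are long, at 224.6 and 318.8 kb, and among 638 genes of similar length a body peak was found in 37.3% with melatonin and 37.5% in the untreated list. Against genes of like length, a body peak in Runx2 was not unusual.

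Upstream of Runx2 the 3 remaining peaks fell in Supt3, the gene of a subunit of the SAGA coactivator complex, whose body overlaps the 5′ end of Runx2. The melatonin peak (44983258 to 44984597) had 16.6 tags per 10000000 and 4 input tags (fold 5.11), 168.5 kb from Runx2. The untreated peaks at 44880764 to 44881764 (13.6 tags per 10000000, 3.9 input tags, fold 4.61) and 44918689 to 44919689 (15.2 tags, 4.7 input tags, fold 4.27) lay 66.0 and 103.9 kb away. The first of these also overlapped the small gene 4930564C03Rik. The untreated pair lay nearer to Runx2 than the melatonin peak, and the closest gap between the lists here was 63.6 kb.

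Around Runx1 (chromosome 16, 92601466 to 92826074, minus strand) the arrangement was the reverse of that at Runx2, with 6 of 7 peaks upstream and none downstream. At Runx1 the untreated list had 20 peaks per Mb upstream (5.45 to 51.2) and 0 downstream (0 to 18.4). At Runx2 it had 10 upstream (1.21 to 36.1) and 25 downstream (8.12 to 58.3). In both lists and for both genes the intervals of the 2 sides overlapped, so these sides are described only. The melatonin list had 1 peak inside Runx1 (92706489 to 92707489), between the distal and the proximal start, 9.16 kb upstream of the proximal one and at 53.0% of the gene's length. Its other peaks lay 26.3 kb (92852351 to 92853351) and 101.8 kb (92927851 to 92928851) upstream. The 3 melatonin peaks had the same 12.3 ChIP tags per 10000000, on 3, 3 and 3.5 input tags (folds 5.07, 5.07 and 4.35). These are near the weakest the caller could accept: their best windows held 18, 18 and 18.5 tags, where 18 were required.

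The untreated list had no peak in the Runx1 body and 4 upstream. They lay at 87.9 kb (92913945 to 92915360), 114.2 kb (92940296 to 92941296), 123.0 kb (92949077 to 92950077) and 194.8 kb (93020866 to 93021866) from the gene. Their ChIP tags were 18.6, 13.3, 12.5 and 13.3 per 10000000, on 5.1, 2.7, 3.1 and 3.5 input tags (folds 4.83, 6.41, 5.29 and 4.98). The untreated tags per 10000000 began just above the melatonin value, at 12.5 against 12.3, a gap far smaller than the counting error of either. The melatonin peak at 92927851 lay between 2 untreated peaks, 12.5 kb from one and 11.4 kb from the other. All of these upstream regions were intergenic, and the annotated gene closest to the melatonin peak at 92927851 and to all 4 untreated ones was the noncoding Gm41499. On the downstream side neither Clic6 nor Rcan1, the regulator of calcineurin, held a peak in either list.

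Runx3 (chromosome 4, 135120645 to 135177990, plus strand) had no peak in its body or within 200 kb in either list. A count of 0 in a window of 457.3 kb allows up to 3 peaks, or 6.56 per Mb, by the rule of 3 counts, and the exact 95% Poisson interval drawn in the plot of densities ends at 3.69 peaks, or 8.07 per Mb. The mean of chromosome 4, at 1.5 peaks per Mb with melatonin and 1.67 in the untreated list, lies below both limits. A shortage around Runx3 was therefore not detectable in a window of this width. The nearest peak was 3993.6 kb away with melatonin (139171597 to 139172597) and 651.5 kb away in the untreated list (135829504 to 135830504, fold 4.1). None of the 11 other annotated genes in the window, among them Clic4, Srrm1, Syf2, Rsrp1 and Ncmap, held a peak. Among 2864 protein-coding genes of a length like that of Runx3 (57.3 kb), a peak within 200 kb was found for 53.8% with melatonin and 48.9% in the untreated list.

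The density of peaks around Runx2 exceeded that of its chromosome in both lists. With melatonin it was 8.35 per Mb (3.06 to 18.2), and untreated it was 12.5 per Mb (5.73 to 23.8), against 2.39 and 2.36 per Mb over chromosome 17. Around Runx1 it was 4.8 per Mb with melatonin (0.99 to 14) and 6.4 per Mb untreated (1.74 to 16.4), against 0.969 and 0.989 over chromosome 16, which is poor in peaks. The chromosome mean lay below each of these 4 intervals, narrowly so for Runx1 with melatonin. Over all chromosomes the lists held 2.93 and 3.18 peaks per Mb. A density at least that of Runx2 was reached around 7.13% of protein-coding genes with melatonin and 2.77% in the untreated list. For Runx1 these shares were 16.8% with melatonin and 11.1% in the untreated list.

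**Figure D2:**
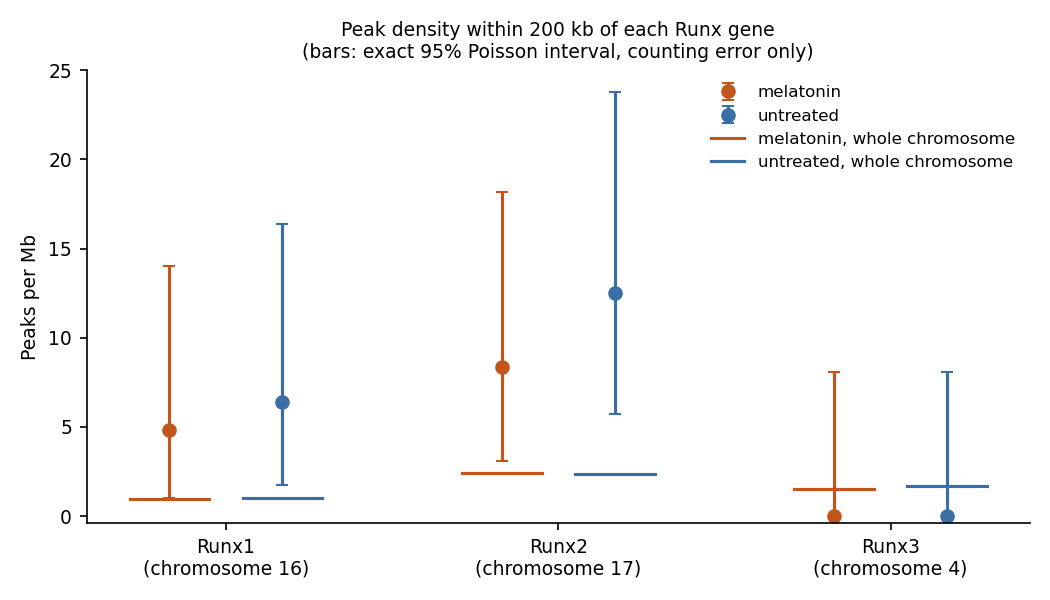
Peaks per Mb in the gene plus 200 kb on both sides for each Runx gene, melatonin left of untreated, with exact 95% Poisson intervals (counting error only). Short lines give the mean of the whole chromosome in the same list. Runx2 with 8.35 and 12.5 per Mb stands highest, and Runx3 is at 0 in both lists.

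The outermost Runx2 peaks inside it lay 168.5 kb from the gene with melatonin (fold 5.11) and 147.8 kb in the untreated list (fold 5.61), and the first ones outside lay at 205.5 kb with melatonin (fold 4.46) and 260.2 kb in the untreated list (fold 4.23). For Runx1 the last inside lay at 101.8 kb with melatonin and 194.8 kb in the untreated list, and the first outside at 429.9 kb and 368.6 kb.

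The melatonin regions called around Runx2 were mostly wider than those of the untreated list, while their tags per kb were alike. Of the 6 melatonin regions 5 exceeded the smallest possible width of 1000 bp, up to 1586 bp, against 0 of 9 untreated regions; over the whole lists 20.8% and 20.4% did. Tags per region had a median of 17.3 per 10000000 with melatonin (14.8 to 26.4) and 14.4 in the untreated list (13.3 to 15.5), and list medians of 13.4 and 13.6. Divided by width, the medians were 13.8 tags per 10000000 per kb with melatonin (12.3 to 16.6) and 14.4 in the untreated list (13.3 to 15.5), with list medians of 13 and 13.3. The ranges overlapped in full on this scale, so that the higher tag counts with melatonin went with the width of the stitched regions. At Runx1 the only region wider than 1000 bp was in the untreated list, at 1415 bp. The regions of the lists are different sites from 1 library per condition, called with at least 18 tags for melatonin and 17 for untreated. They are not replicates, and a difference between the conditions was not tested.

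**Figure D3:**
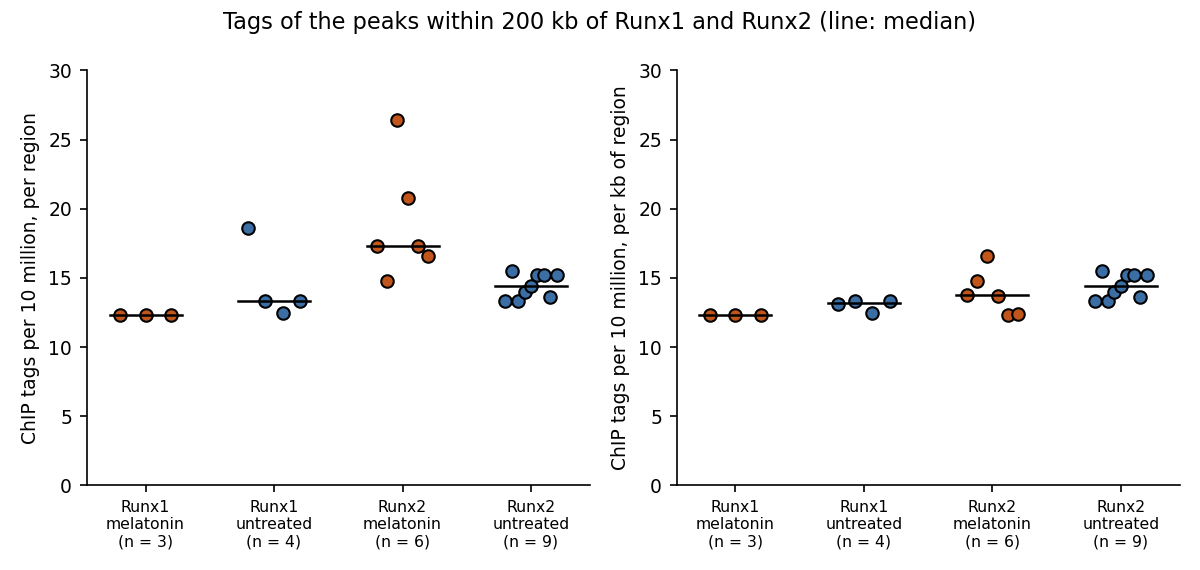
ChIP tags per 10000000 of each peak within 200 kb of Runx1 and Runx2, per region on the left and per kb of region on the right, melatonin left of untreated for each gene. Lines are medians; the Runx2 medians of 17.3 and 14.4 per region become 13.8 and 14.4 per kb.

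The calls rested on few tags. Per the file headers, about 1.12% of melatonin and 1.24% of untreated ChIP tags lay in peaks, which covered 8.39 and 9.13 Mb. ChIP tags per region, as deposited, were 15.2 to 32.6 for melatonin regions and 16.5 to 24.5 for untreated ones. Their input tags were 1 to 6 for melatonin regions and 1.2 to 5.1 for untreated ones. All 22 regions had fewer input tags per kb than the genome-wide expectation: 0.797 to 4.5 with melatonin, where 6.17 were expected, and 1.2 to 4.7 in the untreated list, where 6.6 were expected. Low input also marked the lists as a whole, with medians of 3 and 3.5 per kb. The required fold of 4 itself selects regions of low input, so these values describe the filter as much as the regions. The best window of a region was within 1 tag of the required number for 4 of 9 melatonin and 7 of 13 untreated regions, against 50.3% and 50.5% of the lists. A fold of at least 6 was found in 2 of 9 melatonin and 2 of 13 untreated regions, against 30.1% and 24.1% of the lists. The median fold was 5.11 with melatonin and 4.98 in the untreated list, against list medians of 5.11 and 4.87. These pooled values cover unlike genes. All 3 melatonin and all 4 untreated Runx1 regions were within 1 tag of the required number, against 1 of 6 melatonin and 3 of 9 untreated Runx2 regions. The best windows of 3 melatonin regions downstream of Runx2, at 44430582, 44460921 and 44486272, stood at the 96.2, 98.3 and 97.2 percentiles of their list. The regions with the fewest input tags, at 44430582 with melatonin and at 44769574 untreated, stood at the 98.8 and 99.0 percentiles of their lists in fold.

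**Figure D4:**
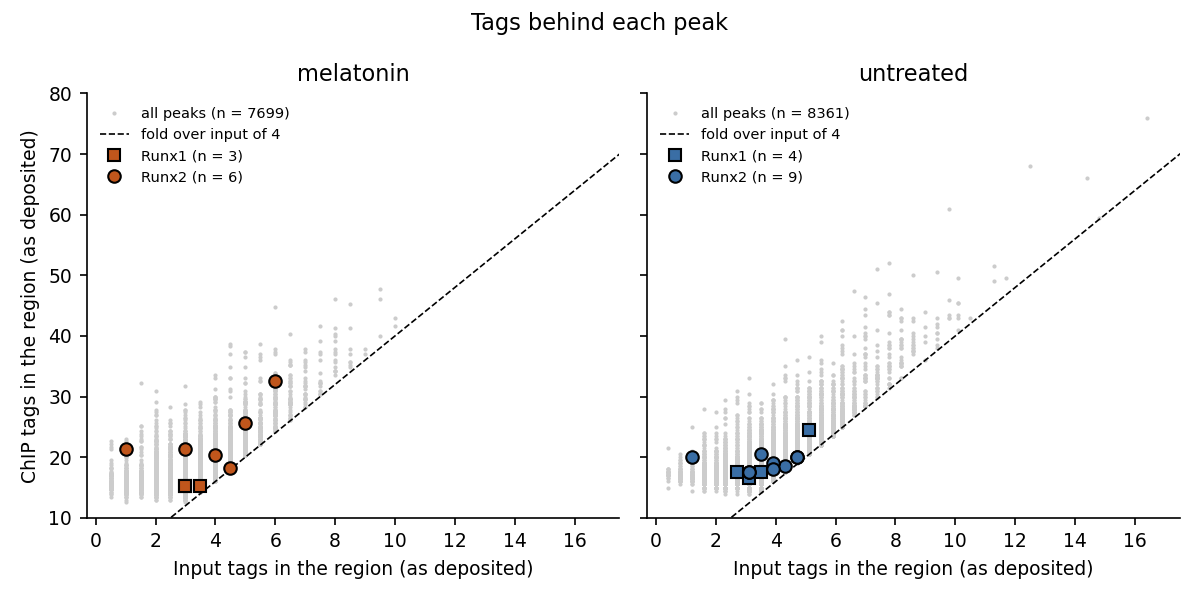
Input tags (horizontal) and ChIP tags (vertical) of each region as deposited, for melatonin on the left and untreated on the right. Grey points are all peaks, squares are the Runx1 and circles the Runx2 regions, some of which coincide, and the dashed line is the required fold of 4; the Runx regions lie inside the grey cloud, with 1 Runx2 region at 1 input tag with melatonin and 1 at 1.2 in the untreated list.

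None of the 22 regions overlapped a region of the other list, where 6.12% of all melatonin and 5.6% of all untreated peaks did. On chromosome 17 the shares were 2.64% with melatonin and 2.68% in the untreated list, and on chromosome 16 they were 4.21% and 4.12%. The distance to the nearest peak of the other list had a median of 15.8 kb for the Runx melatonin regions (4.53 to 206.5 kb) and 56.7 kb for the untreated ones (4.53 to 220.9 kb). Over the whole lists the medians were 24.5 and 25.6 kb, but on the chromosomes concerned they were longer. On chromosome 17 they were 46.4 kb with melatonin and 52.3 kb untreated, and on chromosome 16 they were 118.0 and 136.7 kb. Of the melatonin regions 5 of 9 lay within 20 kb of an untreated peak, and 4 of 13 untreated regions lay within 20 kb of a melatonin peak, against 45.3% and 44.3% of the lists. On chromosome 17 that share was 32.2% of melatonin and 29.5% of untreated peaks, and on chromosome 16 it was 18.9% and 23.7%. Each of these close regions belonged to the downstream stretch of Runx2 or to the upstream stretch of Runx1, and the farthest were inside the gene bodies.

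**Figure D5:**
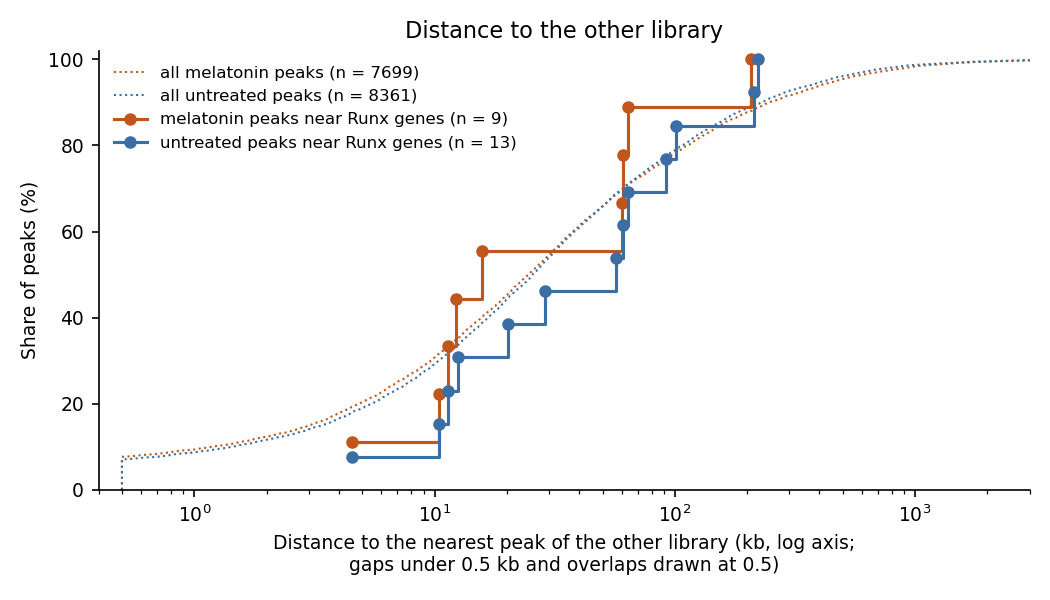
Share of peaks (vertical) within a given distance of the nearest peak of the other list (horizontal, kb, log axis). Joined points are the Runx regions of each list and dotted lines all peaks; the Runx medians of 15.8 kb with melatonin and 56.7 kb untreated stand on either side of the list medians of 24.5 and 25.6 kb, which are shorter than those of chromosomes 16 and 17.

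Genes that work with or under the Runx factors were examined in 4 lists of 62 genes in all, counting a gene as marked when a peak lay in its body or within 2 kb. By this rule 6.0% of all protein-coding genes were marked with melatonin and 5.78% in the untreated list, and 2.78% were marked in both. Of the 62 genes, 4 were marked with melatonin (6.45%) and 6 in the untreated list (9.68%), and 1 in both. The shares over all genes take no account of gene length.

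Among 17 partners and coregulators, 2 were marked in each list. Hdac4, a class IIa histone deacetylase that binds RUNX2, was marked in both, with 3 melatonin peaks, 2 of them inside the gene (best fold 8.7), and 1 in the untreated list (fold 4.23). Its untreated peak at 92193100 to 92194100 on chromosome 1 came within 2.66 kb of a melatonin peak without overlapping it. Kat6b, a histone acetyltransferase gene, had 2 peaks with melatonin alone (best fold 4.93). Tle4, a Groucho family corepressor gene, had 2 in the untreated list alone (best fold 5.27). Cbfb, which encodes the common partner subunit, had none, the nearest lying 182.8 kb away with melatonin and 11.1 kb away in the untreated list. Hdac4, Kat6b and Tle4 are long, at 266.9, 173.3 and 150.1 kb, while Runx1t1, at 152.4 kb, was unmarked. Among genes of 200 to 400 kb, as Hdac4 is, 37.3% had a body peak with melatonin and 37.5% in the untreated list. Against genes of like length, a body peak in Hdac4 was not unusual. None of 15 regulators of Runx2 level or activity, such as Twist1, Smurf1 and Msx2, was marked in either list.

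Of 17 skeletal target genes, 0 were marked with melatonin and 3 in the untreated list. Tnfsf11, which encodes the osteoclast factor RANKL, had an untreated peak 1.52 kb outside the gene (14.0 tags per 10000000, 1.6 input tags, fold 11.86). Galnt3, a glycosyltransferase gene of phosphate balance, had an untreated peak inside (14.8 tags per 10000000, 3.5 input tags, fold 5.55). Mmp13, a collagenase gene that RUNX2 activates, had an untreated peak at its end (13.3 tags per 10000000, 3.5 input tags, fold 4.98). The nearest melatonin peaks to these genes lay at 71.3, 51.1 and 133.8 kb.

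Of 13 blood and neuronal target genes, 2 were marked with melatonin and 1 in the untreated list, with none in common. Itgae, the integrin gene of tissue-resident T cells that RUNX3 activates, had a melatonin peak inside (fold 10.72 on 1.5 input tags). Csf1r, the receptor gene of the macrophage growth factor, had a melatonin peak 0.362 kb outside (fold 4.6). Csf2, which encodes the cytokine GM-CSF, had an untreated peak 1.76 kb outside (fold 4.41). With 1 library per condition these differences have no replicate check, and a gene unmarked in a list may carry the mark below the threshold.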

How the data were processed

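H3K36me2 was mapped by ChIP-seq in bone marrow MSCs, with 1 ChIP and 1 input library per condition. Per the labels' protocols, sequencing adapters were added by a transposase. BWA 0.7.13, Picard 1.126, MACS2 2.1.0 and mm39 are named in the submitters' processing notes. Per the file headers, HOMER findPeaks in histone style called each ChIP library against its own input, unpooled, in windows of 1000 bp (at least 18 tags with melatonin and 17 untreated, fold 4, p 1e-04 over input, local filter off) and stitched them. The names of the peak files carry the code of the input library, while their headers name the ChIP tag directory as the sample called. The headers were followed, and the meaning of every tag and fold value rests on that. The HOMER version is not given in the sources used here.

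Deposited by the authors were a signal (ChIP tags normalized to 10000000 tags), a signal of ChIP and input tags with the deeper library scaled down, a score (the best window's tags), a fold ratio over input and an unadjusted Poisson p-value. Scaling means that p-values and tag counts of the lists are not on one depth, and the fold filter selects regions of low input. The scale was 0.87 for melatonin ChIP tags, from the ratio of the ChIP columns, and 0.78 for untreated input tags, from the step between values, taken as 0.5 tags before scaling.

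Coordinates were read as GRCm38 and not as mm39. The share of peak midpoints in protein-coding genes was in both lists lowest with no shift, among shifts of up to 200 kb, and also on chromosomes 4, 16 and 17 except for the untreated list on chromosome 16, where it was lowest at -20 kb. With no shift it was 29.1% with melatonin and 27.8% in the untreated list, against at most 42.4% and 39.0% at other shifts. Shifts beyond 200 kb were not tried, so a larger offset between the builds at the Runx genes was not examined. If the build named in the notes were right, the counts, distances and places given around the Runx genes would not hold. Genes came from the RefSeq table of GRCm38.p6. Chromosome length was taken up to the last annotated gene or peak. No genome sequence was used here, so the sequences of the peaks themselves, exons and repeats were not analysed.

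Genes of similar length were those of 200 to 400 kb for Runx1 and Runx2 and of 40 to 80 kb for Runx3. Overlap meant 1 bp or more. Intervals are exact 95% Poisson intervals for counts. For folds they are Clopper-Pearson intervals from unscaled tags, turned into ratios and then multiplied by the scaling between ChIP and input, as in the deposited folds. Named are the Runx genes, every gene overlapped by or nearest to a peak of theirs, and marked list members; the unmarked list and window genes named were chosen as examples, with values known. The members and lists were chosen with earlier results of these data known. Analyses used Python 3.11.15, numpy 2.4.6, pandas 2.3.3 and scipy 1.17.1, and the counting was tested on simulated peaks. Alternatives changed flanks, thresholds and overlap rules. Flanks of 1000 kb and tags per kb were added after seeing the data.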

Additional observations from a re-analysis of the deposited data

How the results depend on the processing

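Of 118 recalculated values, 88 moved by at most 1.5 times, or for differences by less than their counting error; the causes of the rest were not tested beyond the change of window or of the number of peaks. The difference in peak number, melatonin minus untreated, changed sign with the setting: for Runx1 it was -1 and became 1 with 100 kb flanks, and for Runx2 it was -3 and became 1 at a fold of at least 6 and 3 when each list was limited to its 3849 lowest p-values. Neither gene thus showed a stable direction. At a fold of at least 6, the Runx1 counts were 0 with melatonin and 1 untreated, the Runx2 counts 2 and 1, the Runx1 body count with melatonin 0 and the Runx2 body count untreated 1. With each list limited to its 3849 lowest p-values, Runx1 had 0 with melatonin and 2 untreated, and the untreated Runx2 count was 2. With 100 kb flanks the untreated Runx1 count was 1. With 500 kb flanks it was 7, and the melatonin Runx2 count was 10. With 1000 kb flanks Runx1 had 6 and 10, Runx2 had 13 with melatonin, and Runx3 had 1 untreated. Between peaks with a fold of at least 6, the median distance to the other list was 284.9 kb with melatonin and 429.5 kb untreated. Marked list members at that fold were 1 partner with melatonin and 0 untreated, 1 skeletal target untreated, and 1 blood or neuronal target with melatonin and 0 untreated. For gene bodies alone the last list had 1 and 0, and with 10 kb flanks it had 3 untreated, as the Runx2 regulators had 1. No share over all genes was computed for 10 kb flanks. Counting by midpoint changed no count by more than 1.5 times, and the count of overlapping regions stayed 0 under each overlap rule, edges within 1 kb included. At a p of at most 1e-05 no count changed. All 9 melatonin and 13 untreated regions already met that limit (highest p over input 4.26e-06), so their counts could not change. This setting gives 22 of the 88 values that moved little, and counts that stayed at 0 are among the 88 too. No paired analysis was possible because each condition had 1 ChIP library.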

Other observations

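Widened to 1000 kb on both sides, Runx2 had 13 peaks in each list, or 5.61 per Mb, still above the chromosome 17 means of 2.39 and 2.36 per Mb. Runx1 had 6 with melatonin and 10 in the untreated list, or 2.7 and 4.5 per Mb. Runx3 had 0 with melatonin and 1 in the untreated list over 2.06 Mb, or 0 and 0.486 per Mb, against chromosome 4 means of 1.5 and 1.67 per Mb. With 500 kb flanks it had 0 in both lists.

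Within 10 kb but outside the 2 kb used above lay an untreated peak near Zbtb16, a zinc finger factor gene of osteoblast differentiation, at 4.19 kb, one near Spi1, the myeloid factor PU.1, at 7.14 kb, and one near Il3, a cytokine gene beside Csf2, at 9.02 kb. The nearest melatonin peaks to these genes lay at 1749.9, 414.9 and 38.6 kb. In the other direction, Kat6a, a histone acetyltransferase gene, had a melatonin peak at 5.92 kb, and its nearest untreated peak lay at 122.1 kb. The share of all protein-coding genes with a peak within 10 kb was not computed. These cases therefore describe single genes and show no difference between the lists.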
